A study of Zea mays with 46 samples.

Results

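The maize gene a1 (anthocyaninless1) encodes dihydroflavonol reductase, an enzyme of the flavonoid pathway. It was followed as a single row, Zm00001d044122, of 39005 genes in the RNA-seq count table, across all 27 libraries. The row was chosen by its identifier, with earlier results of these data known. The RefSeq table used here lists A1 with the synonyms DFR and FNR but held 0 of the 39005 identifiers of the count table, so the pairing of this identifier with a1 comes from outside the files, and all other genes are given by identifier alone.

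Flavonoids are made from chalcones by a chain of enzymes. In maize, the a1 enzyme reduces dihydroflavonols on the way to anthocyanins, the purple and red pigments of kernel and plant, and it also reduces flavanones to flavan-4-ols, from which the brick-red phlobaphenes of pericarp and cob form. P1 is a MYB transcription factor that switches on phlobaphene genes in floral tissues, and a1 is a long-known target of it.

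The RNA-seq part of the study had 9 groups of 3 libraries each. Leaf protoplasts (cells freed of their walls) came from the second leaf of 12-day-old B73 x A632 F1 seedlings. They received P1-rr driven by the strong viral 35S promoter (35S:P1), or else a vector with no insert, and were collected about 18 h after transformation. Silks at 0 days after pollination, unfertilized, came from P1-rr and P1-ww stocks, from the B73 x A632 F1 hybrid, and from the inbreds B73 and A632. Pericarp at 14 days after pollination, from a sample called kernels in its tissue label, came from P1-rr and P1-ww. Red pericarp and cob mark the P1-rr allele, while P1-ww leaves both without colour. The labels list A619 as the inbred of both stocks, and other DNA differences between them were not looked at. A silk or pericarp replicate held 2 field plants. A protoplast replicate is described with 12 plants, but nothing says that the replicates came from separate cell preparations. Their p-values therefore measure the spread between these libraries, which may be technical. Defining markers of silk, pericarp and leaf cells, and the level of P1 itself, were not looked up, because identifiers could not be paired with names. In such bulk RNA, more cells that use the gene and more RNA per cell cannot be told apart.

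The libraries held between 18910941 and 54466743 counts. Over genes, log2 levels of libraries of the same group correlated with r of 0.958 to 0.994 in silk and pericarp and of 0.818 to 0.956 in protoplasts. No libraries of a group were near-identical, the chi-square per degree of freedom between replicates being 7.77 or more. Levels are given as CPM, the count of a1 per library total, scaled to a common library of 1000000 counts. Changes are log2 ratios fitted by edgeR's quasi-likelihood test with their standard error (SE), and p-values are adjusted by Benjamini-Hochberg over all genes tested, with 0.05 as the threshold.

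The 9 groups spanned more than 3 orders of magnitude. F1 silk stood at the top with 5315 ± 459 CPM (SD, n = 3 here and below), which was 0.532% of all counted reads. P1-rr silk followed at 1210 ± 305 CPM, A632 silk at 424 ± 213, P1-rr pericarp at 253 ± 126, 35S:P1 protoplasts at 191 ± 50.3 and B73 silk at 130 ± 48.7. The other 3 groups were far lower: P1-ww silk had 8.18 ± 1.03 CPM, P1-ww pericarp 4.20 ± 1.32 and empty-vector protoplasts 1.79 ± 1.43. No library of these 3 groups exceeded 8.93 CPM, and no library of the other 6 groups was below 79.3 CPM.

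**Figure D1:**
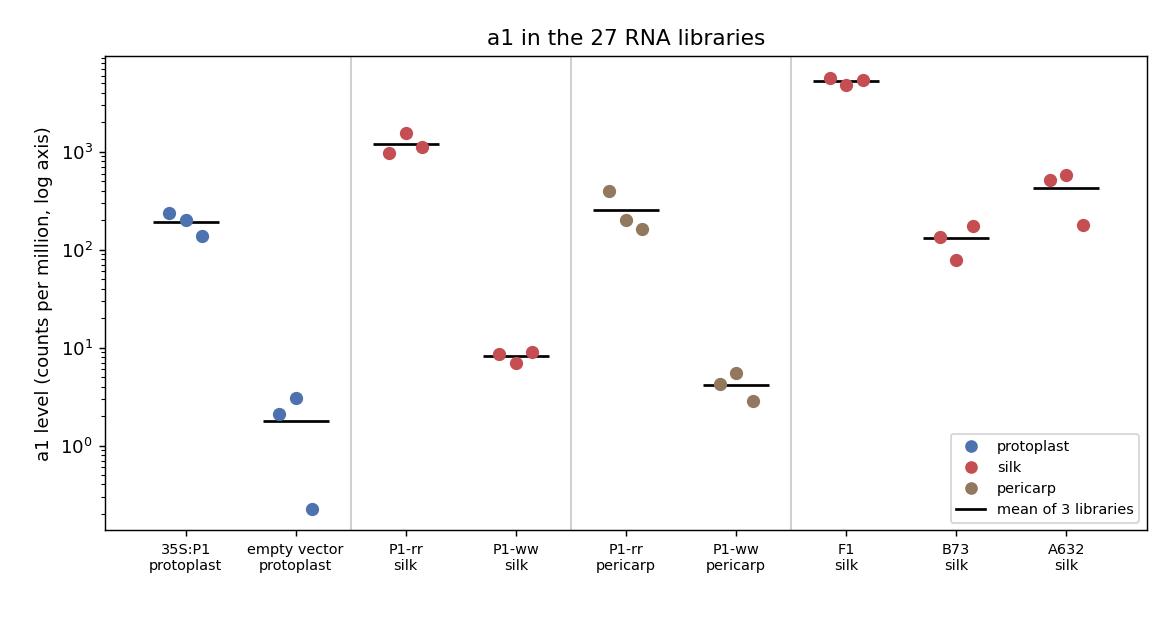
Level of a1 in each of the 27 RNA libraries, in CPM on a log axis; points are libraries, coloured by tissue, and black lines are group means (n = 3). The P1-ww and empty-vector libraries lie at or below 8.93 CPM and every other library at or above 79.3 CPM.

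Each group was set against the next lower one in a fit on all 27 libraries, with the order itself taken from the data. F1 silk exceeded P1-rr silk (log2 difference 2.21 ± 0.60 SE, edgeR adjusted p = 0.00694), a result shared in this direction by 15.9% of the 28420 genes tested. B73 silk exceeded P1-ww silk (log2 difference 4.01 ± 0.65 SE, edgeR adjusted p = 4.12e-05), against 19.0% of genes. The other 6 steps did not pass. All steps share a single spread of a1, so a library outside a step can widen its SE. Without empty-vector replicate 3 the SE fell from 0.58 to 0.42 for P1-rr silk over A632 silk. It fell from 0.60 to 0.43 for P1-ww silk over P1-ww pericarp, which still did not pass. P1-rr silk over A632 silk gave 1.33 ± 0.58 SE (edgeR adjusted p = 0.0834), which passed only without empty-vector replicate 3 (adjusted p = 0.0152). A632 silk over P1-rr pericarp gave 0.90 ± 0.58 SE (adjusted p = 0.186 by edgeR). P1-rr pericarp and 35S:P1 protoplasts could not be ordered: pericarp had the higher mean in CPM, but the fitted difference was -0.04 ± 0.57 SE (edgeR adjusted p = 0.951). The step from 35S:P1 protoplasts to B73 silk was 0.95 ± 0.58 SE (edgeR adjusted p = 0.144), and passed only without empty-vector replicate 3 (adjusted p = 0.0447). P1-ww silk over P1-ww pericarp gave 0.92 ± 0.60 SE (edgeR adjusted p = 0.203) and P1-ww pericarp over empty-vector protoplasts 0.56 ± 0.61 SE (edgeR adjusted p = 0.423). In the steps that cross both tissue and stock, tissue and genotype cannot be told apart.

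The protoplast comparison asks whether a1 responds when P1 is put into leaf cells. With 35S:P1 the 3 libraries held 9423, 5234 and 7450 reads of a1, or 236, 200 and 137 CPM. With the empty vector they held 82, 101 and 8 reads, or 2.09, 3.05 and 0.226 CPM. The groups were far apart: the lowest 35S:P1 library lay 44.9-fold above the highest empty-vector library. Empty-vector replicate 3 stood below the other replicates, and its 8 reads leave a counting interval of 0.0974 to 0.444 CPM (exact Clopper-Pearson, 95%, counting error only).

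The ratio of the means was 107, and the fitted log2 change was 6.53 ± 1.01 SE. In edgeR's fit of the 6 libraries without a block this did not pass the threshold (adjusted p = 0.0683), where 0.139% of 25127 genes were called higher. Some other unblocked fits passed at a similar log2 change. It was 6.54 without a filter on low counts (edgeR adjusted p = 0.0148). With all 27 libraries in the fit it was 6.44 (edgeR adjusted p = 4.01e-06). There the silk and pericarp libraries, whose replicates were closer over all genes, also set the spread. By DESeq2 the change was 6.46 (adjusted p = 1.13e-11). With DESeq2's scaling factors in edgeR the change was also 6.46 but did not pass (edgeR adjusted p = 0.0777). In the fit of the 6 libraries, 50 genes had a larger log2 change than a1 and 17 of them were called. Across all genes, same-numbered libraries deviated together, and with the number as a block the log2 change was 6.91 ± 0.53 SE and a1 was called higher (edgeR adjusted p = 0.000188), as were 5.19% of genes. With the block, 35 genes had a larger log2 change than a1, all of them called. Between same-numbered libraries the ratio of 35S:P1 to empty vector was 113 for replicate 1, 65.8 for replicate 2 and 606 for replicate 3. Replicate 3 stood apart over all genes in both groups: its log2 levels correlated with those of the other replicates at r = 0.886 and 0.818 in 35S:P1 (0.946 between the others) and at r = 0.894 and 0.832 in the empty vector (0.956 between the others). With 1 library left out and no block, edgeR's adjusted p ran from 0.0300 without 35S:P1 replicate 3 to 0.530 without empty-vector replicate 1, while the log2 change stayed between 5.99 and 7.16. Scaling factors were also computed over all 27 libraries without a filter. Those of the protoplast libraries (0.685 to 0.989) lay mostly below those of the silk and pericarp libraries (0.969 to 1.13). The fit of the 6 libraries used factors of its own. In the fit of the 6 libraries, DESeq2's factors in place of edgeR's gave a log2 change of 6.46, as above. Whether the lower factors played any part beyond this was not tested.

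The second question is how a1 differs between silks with an active and an inactive P1 allele. P1-rr silk had 969, 1552 and 1108 CPM of a1, and P1-ww silk 8.60, 7.00 and 8.93 CPM. Every P1-rr library exceeded every P1-ww library by at least 108.5-fold. The gene rose by a log2 change of 7.14 ± 0.48 SE (edgeR adjusted p = 5.3e-07), with a ratio of means of 148, whereas 5.87% of 25250 genes were called higher. Only 14 genes had a larger log2 change than a1, and all 14 were called. Across all genes tested the median absolute log2 change was 0.25.

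Pericarp is the tissue that turns red with P1-rr. P1-rr pericarp held 397, 200 and 163 CPM of a1, and P1-ww pericarp 4.28, 5.48 and 2.84 CPM. The lowest P1-rr library lay 29.8-fold above the highest P1-ww library. The gene rose by a log2 change of 5.87 ± 0.46 SE (edgeR adjusted p = 0.000751) and a ratio of means of 60.3, with 5.70% of 22209 genes called higher. A larger log2 change was found for 31 genes, all called. The mean of P1-rr pericarp was pulled up by replicate 1, which stood apart from replicates 2 and 3. Leaving out each library in turn kept the log2 change between 5.33 and 6.13 and the adjusted p at or below 0.00759 (edgeR).

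The P1-rr effect on a1 in pericarp differed from that in silk by a log2 value of -1.28 ± 0.48 SE. This did not pass the threshold in edgeR's interaction term on 12 libraries (adjusted p = 0.0997), where 5.77% of 24364 genes were called in this direction. Without P1-rr pericarp replicate 1 it was -1.82 and passed (edgeR adjusted p = 0.0042). Over the other settings and libraries left out, adjusted p ran from 0.0508 to 0.632. Within P1-rr, a1 had 253 ± 126 CPM in pericarp and 1210 ± 305 CPM in silk. It was lower in pericarp (log2 -2.20 ± 0.33 SE, adjusted p = 4.49e-05 by edgeR), as were 36.3% of genes. In P1-ww the gene was lower in pericarp as well, at 4.20 ± 1.32 CPM against 8.18 ± 1.03 CPM in silk (log2 -0.92 ± 0.36 SE, adjusted p = 0.0326 by edgeR), in a test that called 38.0% of genes lower. The P1-ww libraries of the tissues did not overlap, but the call was lost without P1-ww silk replicate 1 or 3 (adjusted p = 0.0723 and 0.0796) or P1-ww pericarp replicate 1 or 3 (adjusted p = 0.0608 and 0.119), all by edgeR. Tissue and the day of harvest go together in these pairs.

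**Figure D2:**
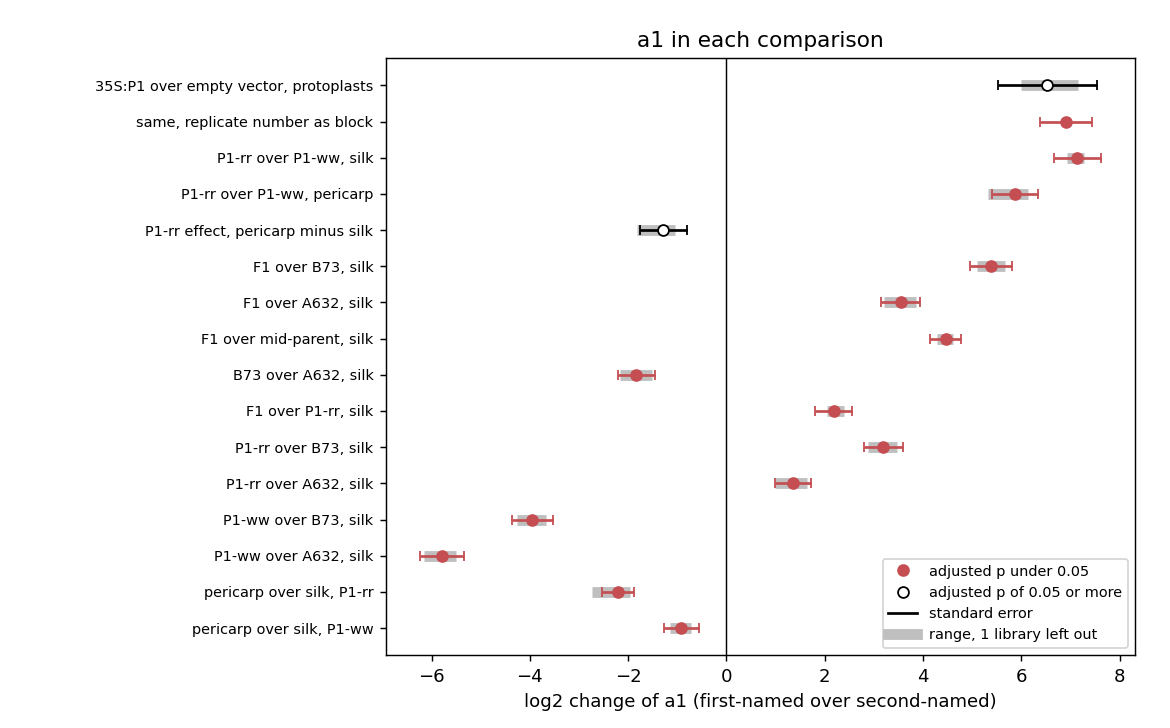
Log2 change of a1 in each comparison (first-named group over second-named); bars are standard errors, grey bands the range with 1 library left out, and filled red points have an edgeR adjusted p under 0.05. The P1 comparisons lie between 5.87 and 7.14, and the protoplast change passes with the replicate number as a block (6.91) and does not pass in the edgeR fit of the 6 libraries without it (6.53).

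The hybrid was then set against its parents. F1 silk had 5719, 4816 and 5411 CPM of a1. B73 silk had 135, 79.3 and 176 CPM, and A632 silk 516, 576 and 180 CPM. All 3 F1 libraries lay above all 6 parental libraries, by at least 27.3-fold for B73 and 8.36-fold for A632. The F1 replicates were also the closest to each other of the 9 groups in relative terms, with an SD of 8.64% of the mean, against 37.4% in B73 and 50.2% in A632 silk.

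F1 silk exceeded B73 silk by a log2 difference of 5.38 ± 0.43 SE (edgeR adjusted p = 8.4e-07), where 22.4% of 25250 genes were called higher. It exceeded A632 silk by 3.55 ± 0.40 SE (edgeR adjusted p = 1.12e-05), where 23.8% were called higher. Being higher than both parents was common in this hybrid and applied to 7.48% of genes, or 1888. Among these 1888 the median of the smaller of the rises over the parents was 0.71 on the log2 scale, and 27 genes surpassed a1, whose smaller rise was 3.55. Against the mid-parent value, the average of B73 and A632 in log2 units, a1 was higher by 4.46 ± 0.31 SE (edgeR adjusted p = 3.32e-07), with 23.6% of genes called higher.

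The parents differed too. B73 silk was lower than A632 silk, with a log2 difference of -1.83 ± 0.37 SE (edgeR adjusted p = 0.000876), a direction called for 28.2% of genes. The library ranges nearly met: the highest B73 library, at 176 CPM, lay just below the lowest A632 library, at 180 CPM. With each library left out in turn, the log2 difference ran from -2.16 to -1.51 and passed each time. Reads were aligned to the B73 genome, and the part of allele differences in the values of A632, F1 and the P1-rr and P1-ww stocks was not tested.

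Among silks, the P1 stocks framed the inbreds. P1-rr silk was higher than B73 silk by 3.19 ± 0.39 SE (edgeR adjusted p = 8.35e-06, 33.5% of genes called higher) and higher than A632 silk by 1.36 ± 0.37 SE, both on the log2 scale (edgeR adjusted p = 0.00512, 32.0% called higher). The call against A632 did not pass in a fit on all 27 libraries (adjusted p = 0.0834). P1-ww silk was lower than B73 silk (log2 difference -3.95 ± 0.42 SE) and lower than A632 silk (-5.78 ± 0.45 SE, edgeR adjusted p = 1.94e-06 and 1.1e-07, with 31.0% and 30.8% of genes called lower). F1 silk exceeded P1-rr silk by 2.19 ± 0.37 SE (edgeR adjusted p = 0.000205, 30.2% called higher), and its lowest library lay 3.10-fold above the highest P1-rr library.

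The comparisons of P1-rr with P1-ww share no libraries with those of F1 with its parents, although the silk ones share a fit. Both parental comparisons use the same F1 libraries. The gene was among 222 genes called higher with P1-rr in both silk and pericarp, which is 1.04% of those tested in both. It was also among the 81 of these genes that exceeded both parents in F1 silk, or 0.381%. With the protoplast libraries blocked by replicate number, 55 genes were higher in all 3 P1 comparisons (0.277% of genes tested throughout) and 45 of them were above both parents as well (0.226%). These 45 include a1. Without the block 14 genes (0.0704%) met all of these conditions, and a1 was not among them.

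The genes whose levels followed a1 most closely were sought by Pearson's r of log2(CPM + 1) over the 27 libraries, which are 9 groups of replicates and share their tissues and stocks. Of 28419 genes compared, 5 had r of 0.9 or more: Zm00001d047452, Zm00001d017077 and Zm00001d006446 (r = 0.96 each), Zm00001d037383 (r = 0.96) and Zm00001d047252 (r = 0.94). The sixth gene had r = 0.88, and the median over all genes was -0.03. All 5 were highest in F1 silk. Zm00001d047452 stood at 306 ± 44.5 CPM there and at 61.7 ± 11.0 CPM in P1-rr silk, and was close to no reads in the low groups, with 0.134 ± 0.0922 CPM in P1-ww silk, 0.0331 ± 0.0287 in P1-ww pericarp and 0.0364 ± 0.0126 in empty-vector protoplasts. Zm00001d017077 had 1606 ± 114 CPM in F1 silk and 343 ± 5.23 CPM in 35S:P1 protoplasts, against 1.68 ± 0.990 CPM in empty-vector protoplasts.

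Since these 5 genes were picked for their likeness, their changes describe the likeness and add no support to it. Zm00001d017077, Zm00001d037383 and Zm00001d006446 changed with P1-rr in silk by 5.42, 5.87 and 6.02 on the log2 scale, Zm00001d047252 by 7.07 and Zm00001d047452 by 8.73, with a1 at 7.14. In pericarp the 5 ran from 6.05 for Zm00001d037383 to 9.17 for Zm00001d047452, all above the 5.87 of a1. In protoplasts they ran from 7.27 for Zm00001d037383 to 10.19 for Zm00001d047252, also above the 6.53 of a1. All 5 passed there without the block (edgeR adjusted p from 0.0235 to 0.0446). Some of these changes rest on a lower group near the floor. Zm00001d047452 averaged 0.134 CPM in P1-ww silk, 0.0331 in P1-ww pericarp and 0.0364 in empty-vector protoplasts. Zm00001d006446 averaged 0.195 CPM in empty-vector protoplasts. F1 silk over B73 silk gave log2 rises of 3.39 to 3.94 in the 5 genes and 5.38 in a1. Over A632 silk, 4 of the 5 genes had larger values than the 3.55 of a1, from 3.73 for Zm00001d006446 to 4.54 for Zm00001d047452, and Zm00001d017077 had 2.92.

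**Figure D3:**
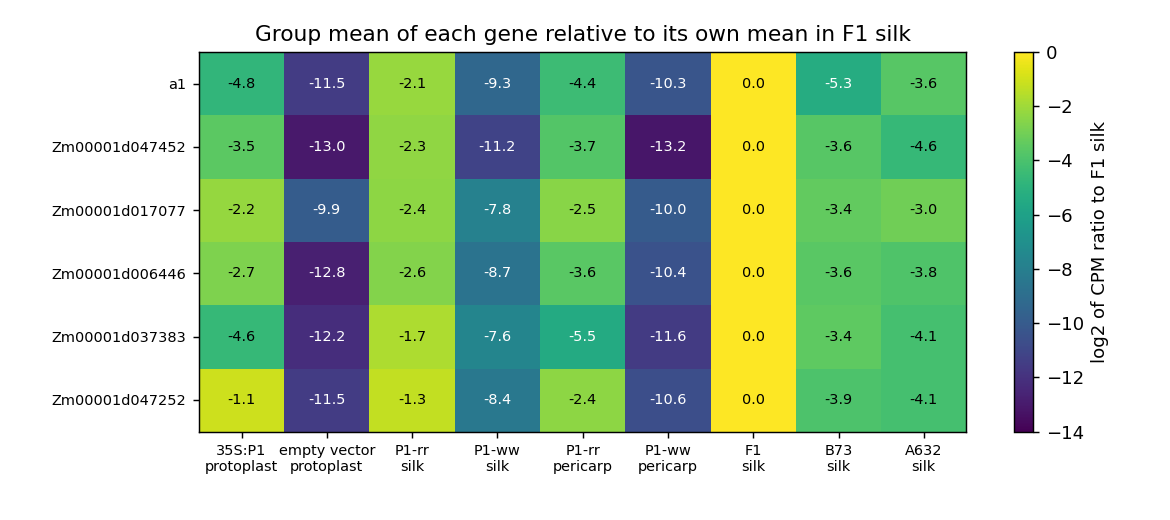
Group means of a1 and of the 5 genes most like it, as the log2 ratio to each gene's own mean in F1 silk (9 groups, n = 3 each; yellow is high). In every row F1 silk is highest and the P1-ww and empty-vector groups are lowest; empty-vector protoplasts average 1.79 CPM of a1 and F1 silk 5315 CPM.

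Within groups, a1 and these genes, which were picked by their likeness over the same libraries, shared their extreme libraries in some groups and not in others. In A632 silk, replicate 3 was the lowest library for a1 and for 5 of 5 like genes, and in B73 silk replicate 2 was the lowest for a1 and for all 5. The highest library differed: a1 peaked in A632 replicate 2 and B73 replicate 3, where 0 of the 5 peaked. In P1-rr silk replicate 2, and in P1-rr pericarp replicate 1, a1 and 5 of 5 genes were highest, while the lowest pericarp library was shared by 2 of 5. In P1-ww silk 1 of 5 genes shared the lowest library of a1 and 2 of 5 the highest, and in P1-ww pericarp 2 of 5 shared the lowest and 1 of 5 the highest. Zm00001d047452 had only 0, 0.0485 and 0.0508 CPM in P1-ww pericarp, so its extremes there rest on almost no reads. Empty-vector replicate 3 was the lowest for a1 and for all 5, whereas in 35S:P1 protoplasts a1 shared its lowest and its highest library with 1 of 5 genes each. Some empty-vector levels were near the floor, and for such genes the lowest library can turn on few reads. Across empty-vector replicates 1 to 3, Zm00001d047452 had 0.0510, 0.0302 and 0.0282 CPM and Zm00001d006446 had 0.204, 0.211 and 0.169 CPM. The A632 and B73 libraries in question also stood apart over all genes, as did replicate 3 of the protoplasts: the r of log2 levels was 0.958 and 0.976 between A632 replicate 3 and its group, against 0.982 between the other A632 replicates, and 0.973 and 0.975 for B73 replicate 2, against 0.993. The part of this difference between libraries in the spread of a1 was not tested.

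**Figure D4:**
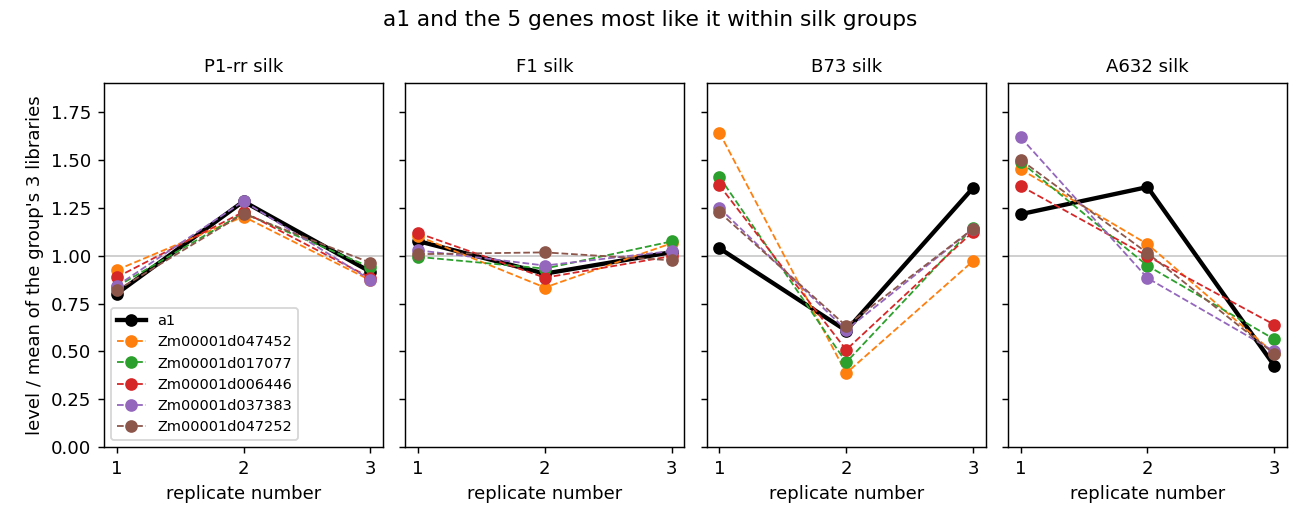
Level of a1 (black) and of the 5 genes most like it in each library of 4 silk groups, divided by the gene's mean over the 3 libraries of the group; replicate numbers carry no order and lines only join the points of a gene. A632 replicate 3 and B73 replicate 2 are the lowest library for a1 and 5 of 5 genes.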

How the data were processed

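The labels' protocols describe single-end sequencing of RNA, with reads of 50 nt. Per the submitters' processing notes, the tools were bcl2fastq 2.20.0, FastQC, Trimmomatic, HISAT2 2.0.4 and Bowtie2 2.3.4.1, and the genome was B73 RefGen_v4. The authors deposited raw read counts per gene and library. No source used here gives the counting tool, the annotation, or how strand and multiply placed reads were treated, so reads shared with gene copies or overlapping genes are uncertain. Growth text and sample labels name different hybrids; the sample labels were followed.

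The main test was edgeR 4.0.16 (R 4.3.3), two-sided and quasi-likelihood, after TMM scaling and a filterByExpr filter with minimum count 10 and minimum total 15. Protoplasts and pericarp were fitted alone, the 5 silk groups together, and the tissue contrasts with 12 libraries (both tissues of both P1 stocks), giving 15 comparisons. Each SE was derived from the log2 change and its F value. DESeq2 1.42.0 was an alternative. The P1 fits in protoplasts, silk and pericarp, and their tissue difference, were also run on simulated counts, whose outcome is not given here. These counts had a fixed spread for all genes and no deviations shared between replicates, so they do not bear on the protoplast call. In protoplasts, deviations from group means correlated between same-numbered libraries (r across genes 0.54, 0.66 and 0.82, at most 0.29 otherwise), so blocked values stand beside those results. The labels do not state this pairing.

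The gene, the comparisons and the rule for the 5 like genes (highest Pearson r of TMM-scaled log2(CPM + 1)) were chosen with earlier results of these data known. Peak lists were not used here, because no position of a1 on B73 RefGen_v4 was at hand. Promoter motifs, which need sequence, and pathway and marker lists, which need gene names for the identifiers, were not analysed here.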

Additional observations from a re-analysis of the deposited data

How the results depend on the processing

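Of 186 values of the 15 comparisons under other settings or with 1 library left out, 186 kept the direction and 174 also the side of the threshold. The protoplast change (log2 6.53, edgeR adjusted p = 0.0683) passed with all 27 libraries in the fit (6.44) and with DESeq2 (6.46). It also passed without a filter (6.54) and with the replicate block (6.91). With DESeq2's scaling factors in edgeR (6.46) it did not pass (edgeR adjusted p = 0.0777). The change ran from 5.99 to 7.16 with 1 library left out. The replicate block changed no other call among the 15. The tissue difference of the P1-rr effect ran from -1.82 to -1.04 with 1 library left out. With all 27 libraries in the fit, P1-rr over A632 silk (1.33) and pericarp over silk in P1-ww (-0.92) no longer passed. The second ran from -1.15 to -0.72 with 1 library left out. The causes were not tested.

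With 1 library left out, the steps between neighbours ran from 0.97 to 1.63 for P1-rr over A632 silk, from -0.59 to 0.23 for P1-rr pericarp over 35S:P1 protoplasts, whose sign turned without pericarp replicate 2 or 3 or 35S:P1 replicate 1 or 2, and from 0.67 to 1.23 for 35S:P1 protoplasts over B73 silk. P1-ww pericarp over empty-vector protoplasts (0.56) gave 0.01 without empty-vector replicate 3 and 1.18 without replicate 2, and did not pass. Of the 5 genes most like a1, 3 remained by Spearman's rho and 5 under each of the other 3 settings.

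Counts of called genes moved more. In protoplasts 35 genes were called, against 117 without a filter, 648 by DESeq2, 1577 with the replicate block, 2342 in a fit on all 27 libraries and, with 1 library left out, 91 without 35S:P1 replicate 2, 96 without 35S:P1 replicate 3 and 0 without each of the other 4. For P1-rr the count was 3140 in silk (410 on all 27 libraries, 4982 on the compared groups, 1449 to 2061 without P1-rr replicate 1 or 2 or P1-ww replicate 2 or 3) and 2878 in pericarp (1400 on all 27 libraries, 1129 with the block, 4553 by DESeq2, 839 to 1541 without each library other than P1-rr replicate 1), and 2902 for the tissue difference (240 on all 27 libraries, 1545 to 1859 without each silk library other than P1-rr replicate 3). In silk, a fit on all 27 libraries gave 3880 against 10733 for F1 over B73, 4539 against 11925 over A632, 3307 against 10272 over the mid-parent, and 7187 against 13376 for B73 over A632. In the contrasts of P1-rr with B73, A632 and F1 silk, and of P1-ww with B73 and A632 silk, it gave 8544 to 10436, against 14989 to 16356. The overlap of a1 with the peak lists was not run.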

Other observations

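Between the parents of the hybrid, a1 passed the test and the 5 genes most like it did not. B73 silk was lower than A632 silk for a1 (130 ± 48.7 against 424 ± 213 CPM, log2 difference -1.83 ± 0.37 SE, edgeR adjusted p = 0.000876). In the 5 genes the same difference ran from -0.47 for Zm00001d017077 to 0.89 for Zm00001d047452 (edgeR adjusted p from 0.0955 to 0.820). Zm00001d037383 stood at 261 ± 88.9 CPM in B73 silk and 161 ± 91.1 CPM in A632 silk. Whether a1 differed from these genes in this respect was not tested.

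The effect of P1-rr in pericarp against that in silk also had opposite signs in a1 and in these genes, a contrast that was not tested. It was 1.28 lower in pericarp than in silk for a1 on the log2 scale (adjusted p = 0.0997 by edgeR), and it was more positive in pericarp for all 5 like genes, from 0.18 for Zm00001d037383 to 2.02 for Zm00001d017077. Of these, 1 passed, Zm00001d017077 (2.02 ± 0.34 SE, edgeR adjusted p = 0.00406). It stood at 286 ± 73.9 CPM in P1-rr pericarp against 1.57 ± 0.483 CPM in P1-ww pericarp, and at 314 ± 62.5 CPM in P1-rr silk against 7.01 ± 0.139 CPM in P1-ww silk. For Zm00001d037383 both stocks were far lower in pericarp than in silk, with 64.6 ± 6.57 against 875 ± 216 CPM in P1-rr and 0.927 ± 0.452 against 14.3 ± 2.39 CPM in P1-ww. These genes were named for their likeness to a1 over all libraries, so their differences from it are a description.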
